A study of Homo sapiens with 2 samples.

Results

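The 10 genes described here encode serine proteases that can activate hepatocyte growth factor (HGF) or work beside it, with their inhibitors and the receptor of one of them. They were listed by name, with earlier results of these data known, and are HPN, ST14, PRSS8, TMPRSS2, TMPRSS4, HGFAC, SPINT1, SPINT2, PLAU and PLAUR, which is 10 of the 18944 genes in the deposited count table. RNA was sequenced from H1993, an established human lung cancer cell line with an amplified gene for MET, the HGF receptor. The parental library, labelled as treated with DMSO, is 1 of 2 libraries. The resistant library, labelled with PHA665752, an inhibitor of the MET kinase, came from a derivative of the same line that had been adapted to the drug over doses rising from 1 nM to 1 µM, held at 1 µM, and then left without drug for 1 week before use. The labels leave unsaid if drug was given again, after that week, before RNA was taken, and if the derivative is a single clone. Each group is 1 library, so no difference below has a replicate check and no p-value is given, and all intervals cover counting error only.

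HGF is secreted as a single chain that binds MET without switching it on, and a trypsin-like protease has to cut it once to give the active ligand. Matriptase (ST14) and hepsin (HPN) make this cut at the cell surface and HGF activator (HGFAC) makes it in plasma. The 2 Kunitz-type inhibitors HAI-1 (SPINT1) and HAI-2 (SPINT2), both membrane proteins of epithelial cells, hold these proteases in check. Urokinase (PLAU), bound to its receptor (PLAUR), is best known for turning plasminogen into plasmin. The genes lie on several chromosomes: HPN, SPINT2 and PLAUR on 19, ST14 and TMPRSS4 on 11, SPINT1 on 15, PRSS8 on 16, PLAU on 10, TMPRSS2 on 21 and HGFAC on 4.

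RefSeq promoter windows, which run from 250 bases before to 50 bases after the first base of a gene on the GRCh38.p14 assembly, were at hand for 5 of the 10 genes: HPN, SPINT1, HGFAC, PLAU and PLAUR. The 3 windows printed here belong to a protease gene that was lower in the resistant library (HPN, chr19:35041471-35041770, plus strand), to the inhibitor gene SPINT1 that was not (chr15:40843798-40844097, plus strand), and to the 1 gene of the 10 that was called higher (PLAU, chr10:73910360-73910659, plus strand). Capitals mark any match to CACCTG, the E-box letters read by ZEB and SNAIL factors, to TGANTCA, the AP-1 letters, or to AACNGGTT, the Grainyhead letters, on either strand.
HPN: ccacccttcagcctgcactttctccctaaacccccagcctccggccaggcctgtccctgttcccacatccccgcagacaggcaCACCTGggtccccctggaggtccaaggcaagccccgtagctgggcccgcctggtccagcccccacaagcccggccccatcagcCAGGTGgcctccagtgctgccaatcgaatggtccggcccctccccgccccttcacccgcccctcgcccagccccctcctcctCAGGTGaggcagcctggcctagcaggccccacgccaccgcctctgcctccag
SPINT1: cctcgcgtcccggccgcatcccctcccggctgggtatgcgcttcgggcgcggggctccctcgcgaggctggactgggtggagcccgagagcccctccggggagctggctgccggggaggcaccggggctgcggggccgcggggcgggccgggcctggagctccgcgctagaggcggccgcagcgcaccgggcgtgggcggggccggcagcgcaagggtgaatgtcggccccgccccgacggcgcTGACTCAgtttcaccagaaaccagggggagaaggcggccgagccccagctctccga
PLAU: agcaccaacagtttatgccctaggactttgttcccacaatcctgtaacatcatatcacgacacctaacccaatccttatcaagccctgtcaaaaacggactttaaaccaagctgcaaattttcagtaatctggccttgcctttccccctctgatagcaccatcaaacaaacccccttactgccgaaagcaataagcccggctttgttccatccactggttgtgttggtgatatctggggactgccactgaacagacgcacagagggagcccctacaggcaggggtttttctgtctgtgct

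The HPN window held 3 matches to CACCTG or its reverse complement, starting at -167, -84 and -2, counted from the first base of the gene as 0. Such a match is found in 20.6% of 27305 promoter windows of this length. SPINT1 held 1 TGANTCA match, at -6, and PLAUR held 1 at -186, against 7.76% of all windows. HGFAC held 2 CACCTG matches, at -124 and -25, and PLAU held no match to these motifs or to GGGCGG. The Grainyhead letters, found in 1.73% of windows, were in none of the 5. SPINT1 was also the richest of the 5 in the letters CG, with 38 of them in 300 bases and an observed over expected value of 0.846, against 0.368 for HPN, 0.298 for PLAU and a median of 0.580 over all windows. The matches describe these letters only.

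ST14, the most abundant protease gene of the 10, was lower in the resistant library, while both Kunitz inhibitor genes stayed within 2-fold. CPM are counts per 1000000 of the library size, with sizes scaled by the trimmed mean of M-values, and the log2 ratio is resistant over parental. A gene was tested when it reached 1 CPM in either library, and was called when it differed at least 2-fold with a 95% counting interval that did not include 0. Of the 10 genes, 8 were tested, 4 were called lower (ST14, HPN, PRSS8 and TMPRSS4), 1 was called higher (PLAU) and 3 were neither. TMPRSS2 and HGFAC had 0 counts in both libraries and were not tested. Over all 12245 tested genes, 8.29% were called lower and 12.1% higher. Only ST14, SPINT1, SPINT2 and PLAUR had at least 1 CPM in both libraries. The other 4 tested genes passed the filter through the library in which they were higher, so their direction was fixed by the filter. Among the 351 genes under 1 CPM in the resistant library only, 78.6% were called lower, and among the 712 under 1 CPM in the parental library only, 86.9% were called higher. The median log2 ratio of the 8 tested genes was -0.73, beside 0.00 over all tested genes, and it mixes these 2 kinds of gene.

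**Figure D1:**
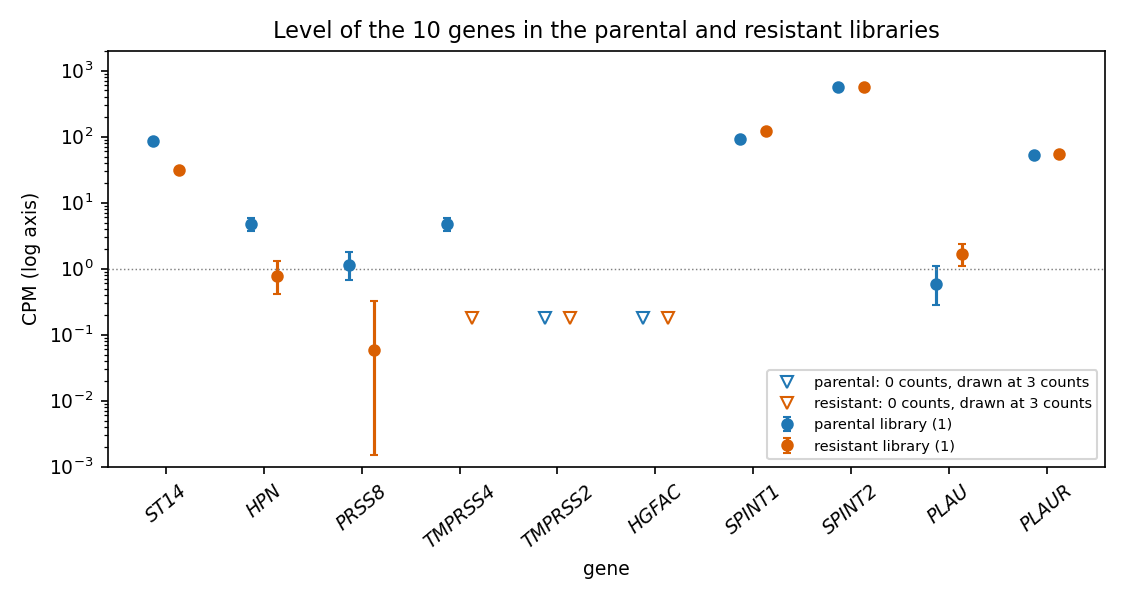
CPM of each of the 10 genes (log axis) in both libraries, with exact 95% Poisson intervals; open triangles stand for 0 counts and are drawn at 3 counts, and the dotted line is 1 CPM. ST14 stands at 85.3 CPM in parental and 31.0 CPM in resistant cells, and SPINT2 at 560 and 564 CPM.

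ST14 encodes matriptase, a type II transmembrane protease of epithelial cells that also cuts the activation sites of other zymogens. It had 1436 counts in parental and 526 in resistant cells, or 85.3 CPM (80.9 to 89.8) and 31.0 CPM (28.4 to 33.8). The parental value was the higher one and the counting intervals did not overlap. Resistant cells had 2.75-fold less ST14 RNA (2.49 to 3.05), a log2 ratio of -1.46 that ranked 569 from the lowest of 12245. ST14 is the only one of the lower genes with at least 1 CPM in both libraries. Of the 11182 genes measured at that level in both, 6.61% were called lower and 7.70% higher.

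HPN encodes hepsin, a second membrane protease able to cut HGF, best known in liver and prostate. It had 80 counts in parental and 13 in resistant cells, 4.75 CPM (3.77 to 5.91) and 0.766 CPM (0.408 to 1.31). The intervals did not overlap, although both levels were low. The ratio was 6.01-fold lower (3.43 to 12.2), rank 238 from the lowest. HPN was tested through the parental library alone, so the filter fixed this direction, and the intervals and rank are a description. The 4 hepatocyte genes taken as markers of the main tissue of HPN (ALB, APOA1, TTR and FGB) summed to 0.178 CPM and 1.00 CPM, with ALB and FGB at 0 and 3 counts in the parental library.

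TMPRSS4, a transmembrane protease often raised in carcinomas, was detected in parental cells only. It had 80 counts there (4.75 CPM) and 0 in resistant cells. A floor of 3 counts stood for a count of 0, that is 0.178 CPM for the parental and 0.177 CPM for the resistant library. Against that floor TMPRSS4 was 26.9-fold lower, leaving out the counting error of the 80 counts. With that error included, the near end of its exact interval was 21.4-fold lower, a log2 ratio of -4.42. PRSS8 encodes prostasin, a membrane-anchored protease that acts in 1 cascade with matriptase and activates the epithelial sodium channel. It had 19 counts and 1 count (1.13 and 0.0589 CPM), a ratio of 13.1-fold lower whose interval ran from 3.05 to 796. PRSS8 was thus near the filter in the parental library, and the size of its ratio is poorly determined. For TMPRSS4 and PRSS8, as for HPN, the filter fixed the direction.

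For TMPRSS2, an androgen-regulated transmembrane protease, and for HGFAC, the plasma activator of HGF, 0 counts in both libraries allow at most the limits just given. HGF itself had 0 counts in both libraries as well. RNA of the ligand that these proteases act on was therefore not detectable at this depth in either library. MET, its receptor, had 81798 and 51832 counts, a log2 ratio of -0.67.

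**Figure D2:**
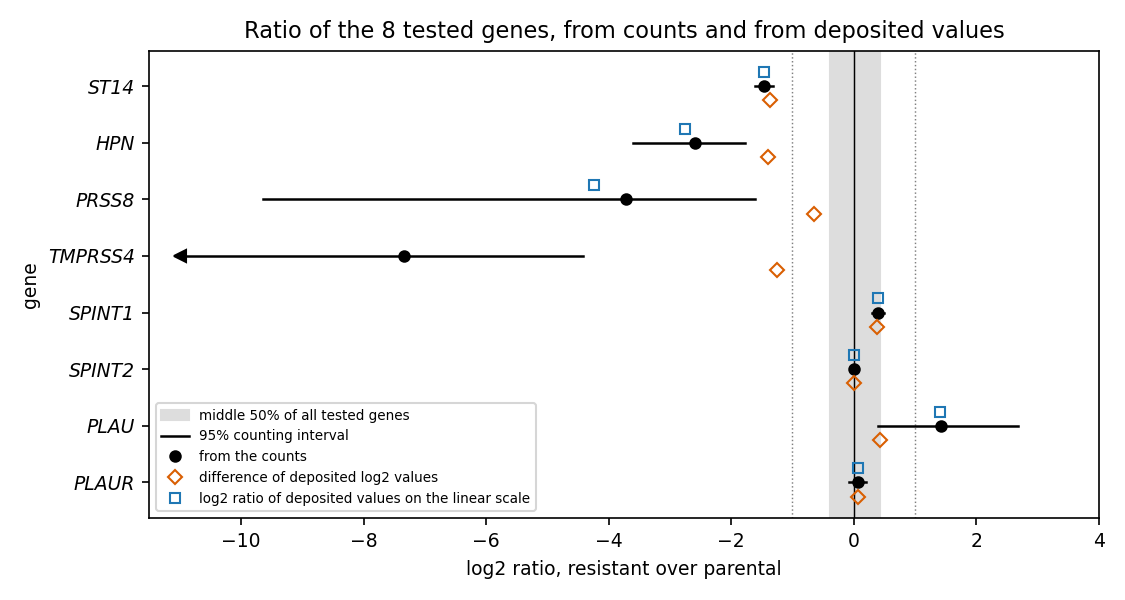
Log2 ratio (resistant over parental) of the 8 tested genes from the counts (filled circles with 95% counting intervals; the arrow on TMPRSS4 marks an open end), from the deposited log2 values (diamonds) and from the same values taken back to the linear scale (squares). The grey band is the middle 50% of all tested genes and the dotted lines mark 2-fold. ST14, HPN, PRSS8 and TMPRSS4 lie left of the band from the counts, and the diamonds of PRSS8 and PLAU lie inside 2-fold.

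Both Kunitz inhibitor genes stayed within 2-fold. SPINT2, whose product HAI-2 inhibits matriptase, hepsin and prostasin, had 9425 and 9566 counts, or 560 CPM (549 to 571) and 564 CPM (552 to 575). Its intervals overlapped, and the ratio was 1.01 (0.978 to 1.04). SPINT1, whose product HAI-1 inhibits matriptase, hepsin and HGF activator, had 1566 and 2071 counts, or 93.0 CPM (88.5 to 97.8) and 122 CPM (117 to 127). The resistant library was the higher one, 1.31-fold (1.23 to 1.40), which is larger than counting error and short of the 2-fold rule.

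Within a library the ratio of 2 genes does not depend on how libraries are scaled, so inhibitor and protease RNA were compared in this way. Counts were divided by the length of the longest coding transcript of each gene in GENCODE 29. SPINT1 RNA per length was 1.26 times ST14 RNA (1.17 to 1.36) in the parental library and 4.56 times (4.14 to 5.03) in the resistant one. This ratio was 3.61-fold larger in the resistant library (3.20 to 4.08, exact conditional interval of the odds ratio). SPINT2 RNA was 12.9 times ST14 RNA (12.2 to 13.6) in parental and 35.7 times (32.7 to 39.1) in resistant cells, a change of 2.77-fold (2.50 to 3.08). From the authors' deposited values on the linear scale, SPINT1 over ST14 was 1.51 in parental and 5.46 in resistant cells, outside the counting intervals above. SPINT2 over ST14 was 12.8 and 35.4, inside its intervals. The counting intervals leave out the choice of transcript length. HPN and PRSS8 were tested through the parental library alone, so the filter fixed the direction of HPN and PRSS8 themselves. This pushed the ratios to them upwards in the resistant library, and the values of these ratios are a description. Against HPN, SPINT1 stood at 15.1 (12.1 to 19.2) and 123 (71.9 to 232), and the change was 8.14-fold (4.48 to 16.0). The SPINT2 to HPN ratio changed 6.25-fold (3.45 to 12.2). Against PRSS8, with 1 count in the resistant library, the SPINT1 ratio changed 25.1-fold with an interval from 3.98 to 1045. These pairs share their numerators and denominators and are not independent of each other or of the single-gene ratios. They are RNA ratios and do not measure protein or protease activity.

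**Figure D3:**
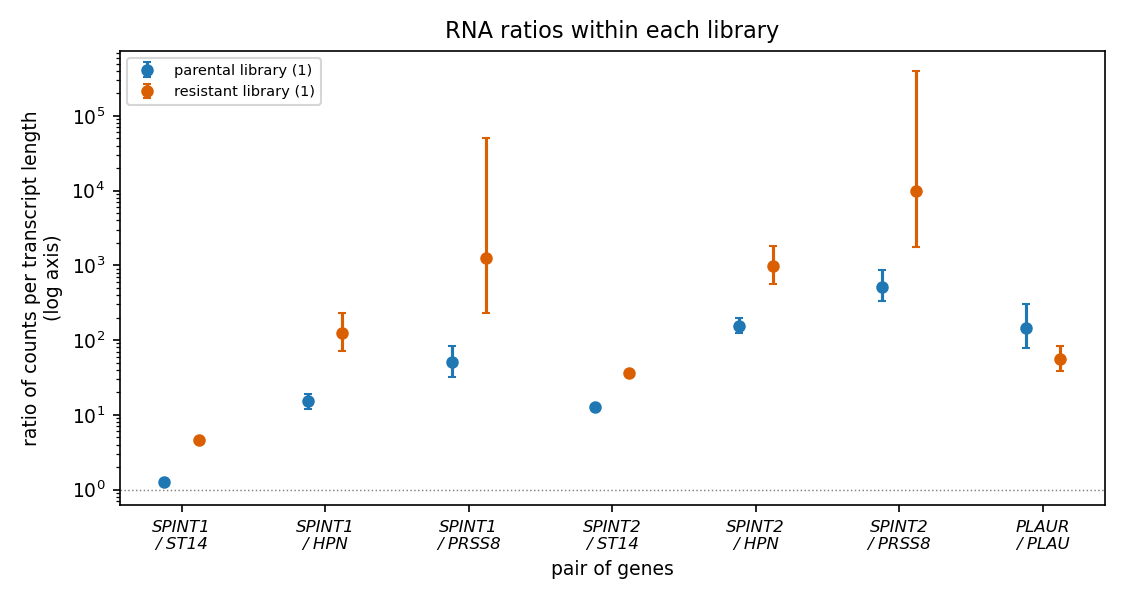
Ratio of counts per transcript length (log axis) for 6 pairs of a Kunitz inhibitor gene and a protease gene, and for PLAUR over PLAU, in each library, with exact 95% counting intervals. For SPINT1 over ST14 the points lie at 1.26 and 4.56 and for SPINT2 over ST14 at 12.9 and 35.7. In the pairs with HPN, PRSS8 or PLAU the filter on low counts fixed the direction of that gene and so pushed the ratio.

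The urokinase receptor gene was steady. The gene of urokinase, scarce in both libraries, passed the filter through the resistant library alone, so its direction was fixed by the filter. Its values, and the ratio of PLAUR to it, are a description. PLAUR had 889 and 936 counts, 52.8 CPM (49.4 to 56.4) and 55.1 CPM (51.7 to 58.8), with overlapping intervals and a ratio of 1.04 (0.952 to 1.15). PLAU had 10 and 28 counts, 0.594 CPM (0.285 to 1.09) and 1.65 CPM (1.10 to 2.38). Those intervals only just failed to overlap. The ratio was 2.69-fold higher (1.31 to 6.41), at rank 1057 from the highest. PLAUR RNA per length was 147 times PLAU RNA (79.4 to 307) in parental and 55.2 times (37.9 to 83.5) in resistant cells.

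Levels of different genes were set in order as CPM per 1000 bases of the longest coding transcript. In the parental library SPINT2 led at 311, followed by PLAUR at 32.8 (30.7 to 35.0), SPINT1 at 30.4 (28.95 to 32.0) and ST14 at 24.1. HPN (2.01), TMPRSS4 (0.856), PRSS8 (0.603) and PLAU (0.223) were all at least an order of magnitude scarcer than ST14. Between neighbours in this order, the exact interval of the ratio per length included 1 for PLAUR over SPINT1 (0.991 to 1.17) and for TMPRSS4 over PRSS8 (0.853 to 2.48). For PRSS8 over PLAU it did not (1.19 to 6.495). In the resistant library the order on the same scale was SPINT2 (313), SPINT1 (39.9), PLAUR (34.25), ST14 (8.76), PLAU (0.621), HPN (0.324), PRSS8 (0.0315) and TMPRSS4, at 0. The ratio of PLAU to HPN had an interval from 0.960 to 4.03 there, and PRSS8 and TMPRSS4, at 1 and 0 counts, could not be ordered. The authors' deposited values on the linear scale, which are also per length, gave the same order in the resistant library. In the parental library they placed SPINT1 (40.2) just above PLAUR (38.9).

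**Figure D4:**
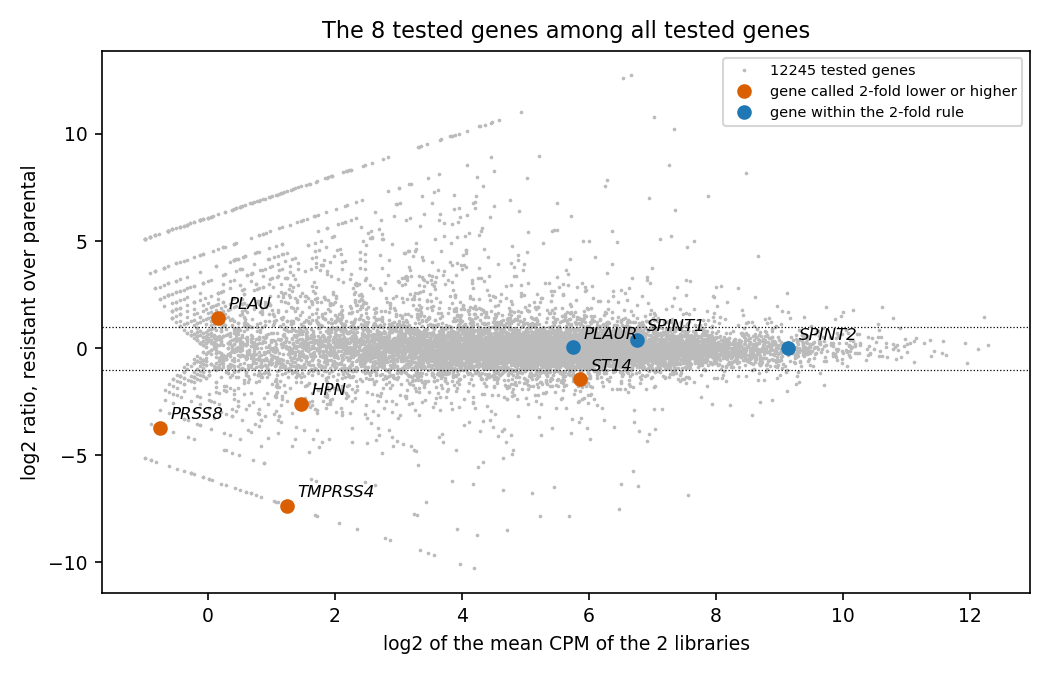
Log2 ratio against the log2 of the mean CPM of both libraries for all 12245 tested genes (grey) and the 8 tested genes of the 10 (orange where called, blue where within the 2-fold rule); dotted lines mark 2-fold. ST14 is the 1 called gene of the 8 at a high level, whereas HPN, TMPRSS4, PRSS8 and PLAU lie at the scarce end, where the grey points spread widely.

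Few of the related protease genes reached 1 CPM. Of 14 other type II transmembrane serine proteases, 6 had 0 counts in both libraries and 1 was tested, TMPRSS13, at 17 and 19 counts. Of 6 membrane-anchored and related proteases 3 were tested. PRSS21, the testisin gene, was 24.1-fold higher in the resistant library, from 22 to 546 counts. PRSS22, at 267 and 227 counts, was within 2-fold, as was F12, at 236 and 170 counts, the only tested one of 7 plasma and kallikrein proteases. MST1R, the receptor gene closest to MET and a receptor whose ligand also needs proteolytic cutting, had 1666 and 323 counts (log2 ratio -2.38), and the ligand gene MST1 had 12 and 14 counts, under the filter.

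Of 6 serpin genes whose products inhibit urokinase, HGF activator, hepsin or matriptase, 2 were tested, 1 was called higher and 0 lower. Beside both lists of this paragraph, 12.1% of all tested genes were called higher and 8.29% lower. SERPINB2 (PAI-2), an inhibitor of urokinase, had 0 and 48 counts, 15.9-fold higher against 3 counts, with the near end of the exact interval at 12.4-fold. SERPINE2, the most abundant of them, whose product also inhibits urokinase, had 1823 and 3365 counts, a log2 ratio of 0.87. SERPINE2 RNA per length was 189 times PLAU RNA (102 to 394) in parental and 124 times (85.9 to 187) in resistant cells, and the interval of the change, 0.285 to 1.40, includes 1. Of 14 other Kunitz-domain genes 6 were tested, 2 were called higher, 0 lower, and the median was 0.44. TFPI2, whose product inhibits plasmin and trypsin, had 659 and 12997 counts, or 39.1 and 766 CPM, and COL7A1, a collagen gene with a Kunitz domain, had 35 and 521. APP (-0.41) and APLP2 (-0.16), whose products also carry or can carry such a domain, were within 2-fold, as was TFPI (0.74).

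Partners of plasminogen activation showed 2 genes higher and 1 lower of 9 tested, with a median of 0.14. The shares over all tested genes were 12.1% higher and 8.29% lower. VTN, MRC2 and, above, SERPINB2 were under 1 CPM in parental cells, and PLAT in resistant cells, so the filter fixed their direction. VTN, the gene of vitronectin, to which the urokinase receptor binds, had 5 and 604 counts. The uPAR-associated receptor gene MRC2 had 13 and 127 counts. PLAT, the tissue plasminogen activator gene, had 18 and 7 counts, and the near end of its interval was only -0.05. It was not called with the whole interval beyond 2-fold, a 4-fold rule, a minimum of 5 CPM or the deposited log2 values, and with the last of these 1 gene of the list was higher. The plasminogen gene PLG had 1 count in each library. ENO1, the most abundant of the list and a cell-surface plasminogen binder beside its role in glycolysis, was at 0.22, and ANXA2 and S100A10, which together bind plasminogen, were at 0.14 and -0.72.

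Genes of proteins that matriptase, hepsin or prostasin can cut were lower in 5 and higher in 3 of 11 tested cases. Of all tested genes, 8.29% were lower and 12.1% higher. The list median was -0.95, and it moved to -0.74 with no filter and to -1.25 with a minimum of 5 CPM. SCNN1A, a subunit gene of the epithelial sodium channel, had 908 and 34 counts (log2 ratio -4.73). F2RL1, the gene of protease-activated receptor PAR2, was at -2.44 and CDCP1 at -1.89. DSG2, a desmosomal cadherin gene and the most abundant of the list, was at -1.58, with EPCAM at -1.25. EGFR (1.19), the laminin gene LAMB3 (1.52) and PDGFD (2.09, at 11 and 49 counts, tested through the resistant library alone) were higher. With a 4-fold rule 2 genes of this list were lower and 1 higher.

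Of 10 tested regulators of epithelial transcription and splicing, 5 were called lower and 0 higher, with a median of -0.85. The 5 were GRHL1 (-1.77), OVOL1 (-1.70), ESRP2 (-1.22), GRHL2 (-1.08) and OVOL2 (-1.01). Among all genes with at least 1 CPM in both libraries, as these 10 had, 6.61% were lower and 7.70% higher. This list too was chosen with earlier results of these data known. CDH1, the most abundant, was at -0.69, and ELF3 (0.08) and EHF (0.70) were not lower. The count of lower regulators was 4 with RLE size factors, upper quartile scaling, 2 added to each count or the deposited log2 values. It was 6 with no filter, 3 with the whole interval beyond 2-fold and 0 with a 4-fold rule. Of the 6 epithelial marker genes EPCAM, CDH1, KRT7, KRT8, KRT18 and KRT19, all were detected, 1 was called lower (EPCAM) and 5 were neither, and they summed to 7707 CPM in parental and 8383 CPM in resistant cells. Of the 6 lung markers, NKX2-1 was at 4.16 and 5.95 CPM, while NAPSA and SFTPA1 had 0 counts and SFTPA2, SFTPB and SFTPC had 0 to 2, so the defining secretory markers of lung alveolar cells were near absent. Immune markers summed to 1.84 and 2.83 CPM and fibroblast markers to 20.9 and 15.0 CPM, nearly all COL1A1. Endothelial markers summed to 0.356 and 29.2 CPM, nearly all CDH5, with PECAM1 and VWF at 0 or 1 count. In bulk RNA, fewer cells that express a gene and less RNA per cell cannot be told apart, and the part of these markers in the results was not tested.

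**Figure D5:**
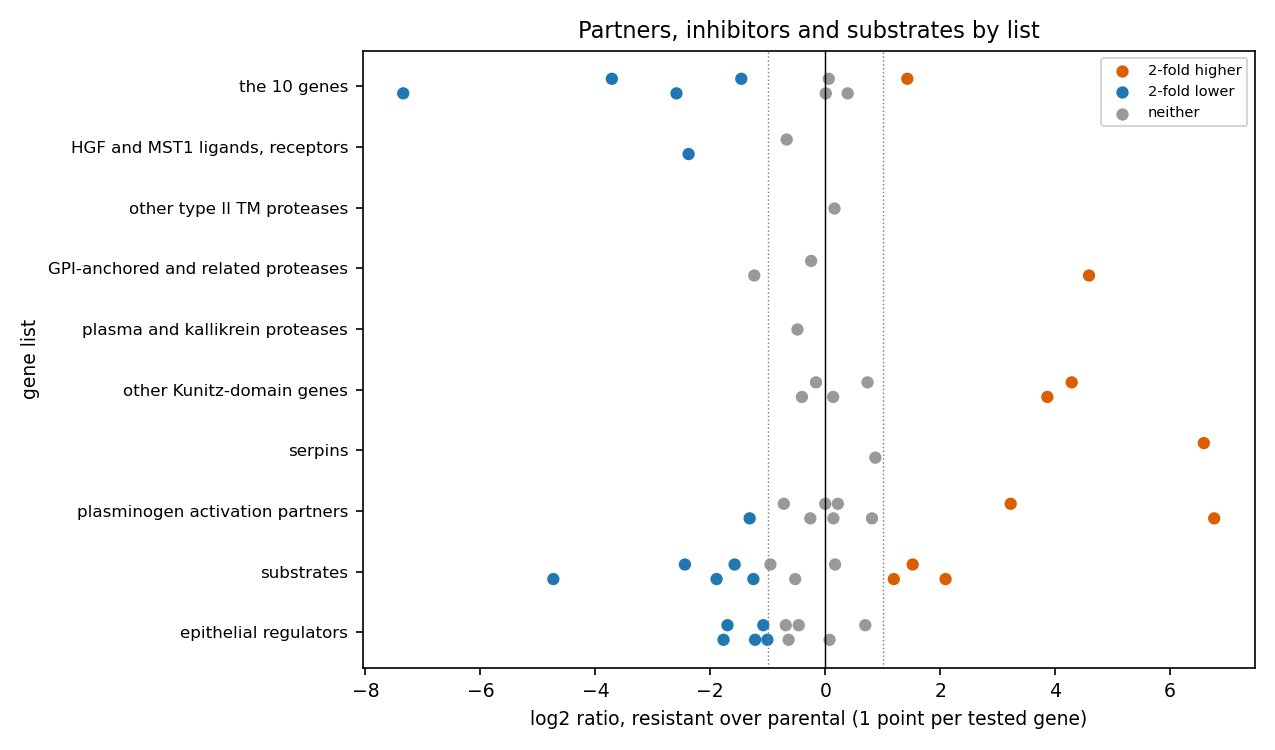
Log2 ratio (resistant over parental) of every tested gene in the 10 genes and in 9 lists of related genes, 1 point per gene, coloured by the 2-fold call; dotted lines mark 2-fold. TFPI2 lies at 4.29 among the Kunitz-domain genes, whereas the substrates run from -4.73 to 2.09.

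The choice of values changed which of the 10 genes passed. In the authors' deposited log2 values, ST14 was at 4.784 in parental and 3.412 in resistant cells, HPN at 1.884 and 0.483, and TMPRSS4 at 1.249 and 0, and these 3 differed by 1 or more. PRSS8 stood at 0.702 and 0.047 and PLAU at 0.337 and 0.763, under 1 in both libraries, where a difference of 1 could not be reached. With these values 4.83% of the tested genes were lower and 7.56% higher by 1 or more. Taken back to the linear scale with 1 taken off, the deposited values gave log2 ratios of -1.46 for ST14, -2.76 for HPN, -4.24 for PRSS8 and 1.41 for PLAU. All 4 of these lie inside the counting intervals from the counts. When the whole interval had to lie beyond 2-fold, the 4 lower genes were still called and PLAU was not, with 5.35% of all tested genes lower and 8.96% higher. A 4-fold rule left HPN, PRSS8 and TMPRSS4, with 2.93% and 6.32% of all genes. These 3 were tested through the parental library alone, so the filter fixed their direction and the shares over all genes are not a like comparison. Among genes under 1 CPM in the resistant library only, 78.6% were called lower by the main rule. With a minimum of 5 CPM in either library only ST14 was called, with 7.01% and 9.38%.

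Some counts carry an annotation limit. The strand setting of the counting is not given in the sources used here, and in GENCODE 29 exons of HPN, SPINT1 and PRSS8 overlap an antisense gene. PLAU overlaps C10orf55 on the other strand, which had 0 and 1 counts, and SPINT2 overlaps a coding gene model on its own strand. Reads of such partners cannot be told apart from those of the named gene here.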

How the data were processed

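RNA was sequenced from 1 parental and 1 resistant H1993 library. The authors deposited raw counts per gene symbol for 18944 genes and, beside them, normalized log2 values, per the file headers. FastQC and STAR are named, without versions, in the submitters' processing notes, which list both GRCh38 and hg19. The counting program, annotation and strand setting are not given in the sources used here. Counts summed to 16723181 (parental) and 17086748 (resistant), with 0 mitochondrially encoded genes listed.

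Libraries were scaled by TMM in edgeR 4.0.16 (R 4.3.3). Ratios had 0.5 added to each count. Intervals are exact (conditional binomial, 95%, scipy 1.17.1) and cover counting error only, since reads without molecular identifiers are not independent molecules. Calls needed 1 CPM in a library, a log2 ratio of 1 in size and an interval without 0. The calling step was tested on simulated data that held counting error only. That run could not show how calls behave under variation between libraries. The method of the deposited log2 values is not stated. Lengths came from GENCODE 29 and promoters from RefSeq. No protein sequences were used, so the planned order by coding length used transcript length. All 10 members are named; in related lists, called genes and the most abundant one, and other genes were named after their values were seen. Members and lists were chosen with earlier results of these data known. Some genes of the related lists are not reported here, and list counts leave them out.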

Additional observations from a re-analysis of the deposited data

How the results depend on the processing

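ST14, HPN, PRSS8 and TMPRSS4 were called lower under library totals, RLE size factors, upper quartile scaling, no filter, 2 added to each count, and a whole interval beyond 2-fold. HPN, PRSS8 and TMPRSS4 passed the 1 CPM filter through the parental library alone, which fixed their direction, so their repeated calls are a description. With at least 5 CPM only 1 of the 10 genes was called lower (ST14) and 0 higher, because HPN and TMPRSS4 (4.75 CPM), PRSS8 and PLAU were no longer tested, and the median log2 ratio over the remaining 4 was 0.036. With a 4-fold rule ST14 dropped out, and with the deposited log2 values PRSS8 did. PLAU was not called with a whole interval beyond 2-fold, with a 4-fold rule or with the deposited log2 values, so 0 genes were higher under each. The deposited log2 values gave a median of -0.32. Over all genes, 655 (whole interval), 359 (4-fold) and 591 (deposited log2 values) were lower instead of 1015, and 774 (4-fold) and 926 (deposited log2 values) were higher instead of 1480. Without transcript length, 4 of 8 genes kept their place in the parental order. No paired analysis was possible because each group has 1 library. Depth limits HPN, PRSS8, TMPRSS4 and PLAU, with 80 counts or fewer in each library.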

Other observations

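The deposited log2 values behaved as the log2 of 1 plus a count per length. Dividing each count by its deposited value, taken back to the linear scale with 1 taken off, should then give a length that is the same in both libraries up to 1 factor. Among 8345 genes with at least 200 counts in both libraries, this held within 5% for 97.2% of genes. The implied lengths had a median of 0.948 times the longest coding transcript in GENCODE 29 (quartiles 0.814 and 0.998, 8204 genes), with a Spearman correlation of 0.87 across genes, which are not independent. HPN and TMPRSS4, both with 80 counts in the parental library, have deposited log2 values of 1.884 and 1.249 there, and their longest coding transcripts measure 2363 and 5550 bases. Differences of these log2 values are compressed towards 0 for scarce genes by the added 1: HPN is at -1.40 as a difference of log2 values and at -2.76 as a ratio on the linear scale.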
